A study of Homo sapiens with 6 samples.

Results

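The genes described here are 10 members of the AP-1 and immediate early group, FOS, FOSB, FOSL1, FOSL2, JUN, JUNB, JUND, ATF3, EGR1 and IER2. They were chosen by symbol, with earlier results of these data known, and all 10 were found among the 19469 genes of the count table. They were read in L3.6pl, an established human pancreatic cancer line of adenosquamous type (the cell line field of the sample labels writes L6.6pl), grown in serum-containing medium without further treatment. Cells were stained for surface L1CAM, the L1 cell adhesion molecule, sorted by FACS into an L1CAM_POSITIVE population (L1high) and an L1CAM_NEGATIVE population (L1low), and sequenced as mRNA in 3 libraries each. Dead cells were excluded by dye. All 6 libraries came from sorted cells of a single line, and no unsorted library was analysed here, so whatever detachment and sorting add to these levels cannot be told apart from the level in culture. The labels do not say whether the 3 libraries of a population came from separate cultures, and the p-values then measure only the spread between these libraries, which may be technical.

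AP-1 is a dimeric transcription factor built from basic leucine zipper proteins. A FOS protein (FOS, FOSB, FOSL1 or FOSL2) pairs with a JUN protein (JUN, JUNB or JUND), and ATF3 can join a JUN protein as well. FOS, FOSB, JUN, JUNB, ATF3, the zinc finger factor EGR1 and the nuclear protein IER2 are known as immediate early genes, which are switched on within minutes by serum, growth factors, mechanical handling or stress, without new protein synthesis, and whose transcripts decay fast. FOSL1 and FOSL2, which encode FRA-1 and FRA-2, appear later and last longer, and FOSL1 is known in epithelial tumors for its link to RAS-MAPK signaling, migration and invasion. JUND is the JUN gene that is expressed most evenly in resting and stimulated cells.

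Total counts on genes ran from 16334610 to 21064685 per library. The supplementary comparison of the study used L1high replicates 1 and 2 and the 3 L1low libraries, and the first fit here used the same 5 libraries, with all 6 beside it. Levels are given as CPM, the reads of a gene relative to the TMM-scaled size of its library, with factors set over all 6 libraries. Values of a population are listed in the order of replicates 1, 2 and 3, log2 fold changes are L1low over L1high, and positions are those of GENCODE on GRCh38. A gene was called where its p, from the quasi-likelihood F-test of edgeR and adjusted by the Benjamini-Hochberg method over all genes, was under 0.05. Fits that leave out a replicate start from all 6 libraries. The sorting marker L1CAM stood between 69.8 and 89.6 CPM in the L1high libraries and between 17.7 and 23.7 CPM in the L1low libraries. The epithelial markers EPCAM, CDH1, KRT8, KRT18 and KRT19 were all detected, with a summed level of 2696 to 3069 CPM in L1high and 3045 to 3233 CPM in L1low libraries. Of these, KRT19 was called higher (log2 fold change 0.69, adjusted p = 6.8e-05 in edgeR's test) and EPCAM lower in L1low cells (-0.37, adjusted p = 0.013). Of 8 fibroblast markers, LUM and COL3A1 were measured, and the others were not found by symbol in the count table. The summed level of LUM and COL3A1 ran from 79.9 to 90.8 CPM in L1high and from 131 to 151 CPM in L1low libraries. Nearly all of it was LUM, which was called higher in L1low cells (log2 fold change 0.74, adjusted p = 0.00031 in edgeR's test). Of 7 blood and endothelial markers, CD68 and PECAM1 were measured, at a summed level of 19.7 to 20.7 CPM in L1high and 23.2 to 24.5 CPM in L1low libraries. The part of these markers in the results below was not tested.

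Of the 10 genes, FOS, EGR1 and FOSB were among the most abundant transcripts of the sorted cells, in L1high and L1low libraries alike. The 10 genes together took 0.777% to 0.843% of all counts in the L1high libraries and 0.978% to 1.05% in the L1low libraries, without overlap. Levels of different genes were compared as CPM per kilobase of annotated exon. On that scale FOS averaged 726 CPM per kilobase over the 6 libraries and ranked between 78 and 108 among the 19344 genes with a known length. EGR1 averaged 594 and ranked between 85 and 129, and FOSB averaged 461 and ranked between 124 and 180. JUNB followed at 334, then JUN at 163, IER2 at 145, ATF3 at 87.4 and JUND at 79.3 CPM per kilobase. Their ranks were 163 to 237 for JUNB, 362 to 458 for JUN and 368 to 619 for IER2. ATF3 ranked between 654 and 1005, and JUND between 780 and 1007. FOSL1 (27.1) and FOSL2 (22.6) stood at the lower end, with ranks from 2381 to 2898 and from 2792 to 3708. On this scale each library kept FOS above EGR1 and EGR1 above FOSB. JUND stood above ATF3 in the L1high libraries and ATF3 above JUND in the L1low libraries. Both orders depend on the annotated exon lengths used. In CPM alone, FOSB stood above FOS and EGR1, and ATF3 above JUND, in each library. No level rested on fewer than 771 counts, so the counting error of a single value was at most 3.6%.

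The genes ATF3, FOSB, IER2, FOSL2, EGR1 and FOS were higher in L1low cells. The test called these 6 of 10 genes over the 5 libraries and the same 6 over all 6 libraries, and none was called lower. Over the 5 libraries, 7.57% of all genes tested were called, with 4.41% higher and 3.15% lower in L1low. With all 6 libraries, 7.95% were called, 4.58% higher and 3.37% lower. The differences were small, from 1.19-fold for FOS to 1.42-fold for ATF3. FOSL1, JUN, JUNB and JUND were not called. The median log2 fold change of the 10 genes was 0.32 over the 5 libraries and 0.28 over all 6, against 0.0016 and -0.0087 over all genes. In bulk RNA, a larger number of strongly expressing cells and more RNA in each cell cannot be told apart.

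**Figure D1:**
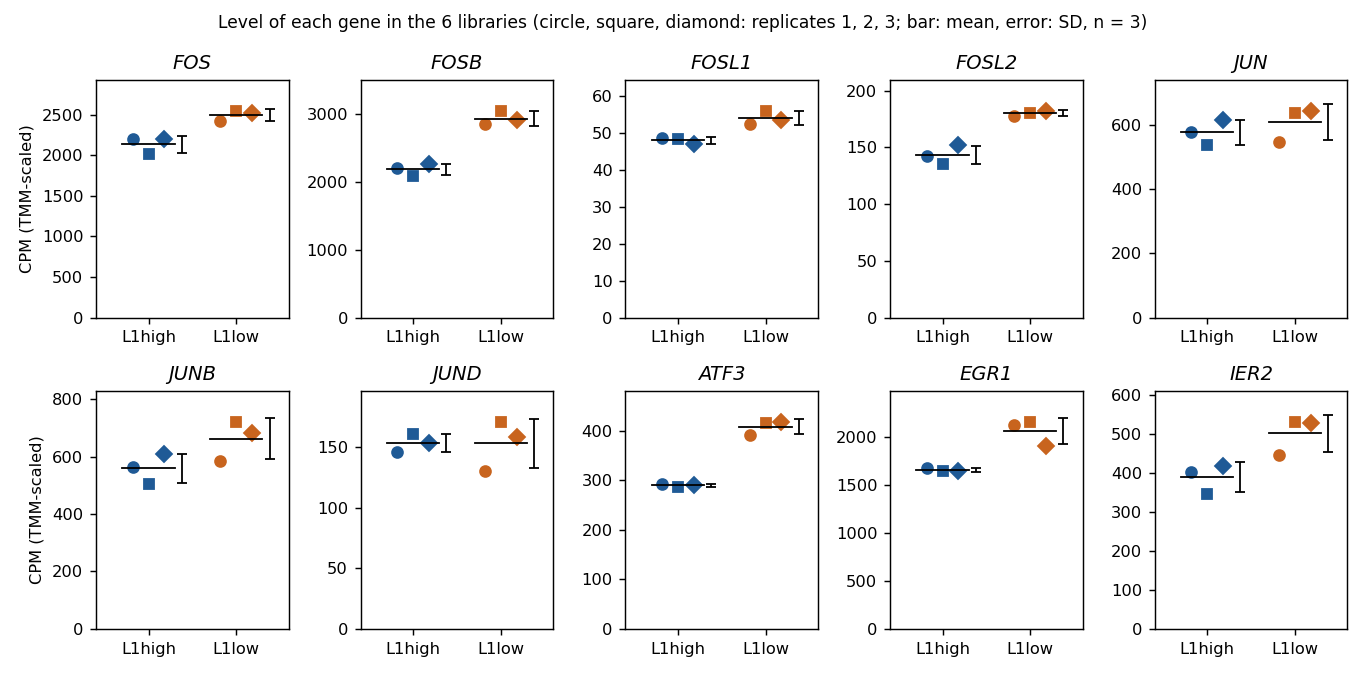
CPM (TMM-scaled, linear axis from 0) of the 10 genes in the 3 L1high (blue) and 3 L1low (orange) libraries, with the mean as a line and the SD (n = 3) as an error bar. The populations do not overlap for FOS, FOSB, FOSL1, FOSL2, ATF3, EGR1 and IER2, while JUN, JUNB and JUND overlap.

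FOSB (ENSG00000125740, GRCh38 chromosome 19, plus strand, from 45467995 to 45475179) encodes a FOS protein that pairs with JUN proteins. It stood at 2202, 2089 and 2262 CPM in L1high replicates 1, 2 and 3 and at 2849, 3051 and 2909 CPM in L1low replicates 1, 2 and 3. The lowest L1low library lay well above the highest L1high library. The log2 fold change was 0.46 (standard error, SE, 0.07, adjusted p = 0.00115 in edgeR's test) over the 5 libraries and 0.43 (adjusted p = 0.00083) with all 6. FOSB lies within the span of ERCC1, a gene of the opposite strand, but shares no annotated exon base with it. ERCC1 had a log2 fold change of 0.33 (adjusted p = 0.017 in edgeR's test).

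FOS (ENSG00000170345, plus strand of chromosome 14 from 75278826 to 75282230) is the founding FOS gene and a widely used marker of acute stimulation. Its level was 2193, 2015 and 2194 CPM in L1high replicates 1, 2 and 3 and 2416, 2547 and 2520 CPM in the L1low libraries. The populations did not overlap, but L1high replicates 1 and 3 lay close to L1low replicate 1. This gave a log2 fold change of 0.25 (SE 0.07, adjusted p = 0.041 in edgeR's test) over the 5 libraries and 0.23 (adjusted p = 0.036) with all 6. The call held in 10 of 15 alternatives, the fewest among the 6 called genes. It was lost without L1high replicate 1 (adjusted p = 0.12 in edgeR's test), L1high replicate 2 (0.071), L1low replicate 1 (0.051) or L1low replicate 2 (0.18), and with upper-quartile factors (0.051), at log2 fold changes of 0.19 to 0.25.

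FOSL2 and FOSL1, the later and more lasting FOS genes, were measured at far lower levels. FOSL2 (ENSG00000075426, chromosome 2 from 28392448 to 28417317) stood at 142, 135 and 152 CPM in L1high replicates 1, 2 and 3 and at 178, 181 and 182 CPM in the L1low libraries. The 3 L1low values were nearly equal and all above the L1high values. Its fold change on the log2 scale was 0.39 (SE 0.07, adjusted p = 0.0071 in edgeR's test) over the 5 libraries and 0.33 (adjusted p = 0.0095) with all 6. The call was lost without L1high replicate 1 (adjusted p = 0.068) or L1low replicate 2 (0.063) in edgeR's test.

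FOSL1 (ENSG00000175592, minus strand of chromosome 11 from 65892049 to 65900573) stood at 48.7, 48.5 and 47.0 CPM in the L1high libraries and at 52.6, 56.1 and 53.7 CPM in L1low replicates 1, 2 and 3. The libraries of each population lay close together and the populations did not overlap. The log2 fold change of 0.16 over the 5 libraries (95% interval from -0.02 to 0.35, adjusted p = 0.28 in edgeR's test) and of 0.17 over all 6 (95% interval from 0.01 to 0.33, adjusted p = 0.18) was not called. At 1.12-fold, the difference of FOSL1 was smaller than those called, but the intervals of FOSL1 and FOSL2 overlapped and the difference between these genes was not tested.

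The JUN genes showed no called difference. JUNB (ENSG00000171223, chromosome 19 from 12791486 to 12793315) stood at 564, 506 and 607 CPM in L1high replicates 1, 2 and 3 and at 584, 720 and 683 CPM in L1low replicates 1, 2 and 3. L1low replicate 1 fell within the range of the L1high libraries, and the other L1low libraries lay above it. The difference on the log2 scale was 0.32 (SE 0.09, adjusted p = 0.057 in edgeR's test) over the 5 libraries and 0.24 (adjusted p = 0.12) with all 6. JUNB was called with DESeq2 (0.31, adjusted p = 0.037), with offsets for GC content and length (0.25, adjusted p = 0.018 in edgeR's test), with the replicate number as a block over the 5 libraries (0.29, adjusted p = 0.019) and without L1low replicate 1 (0.33, adjusted p = 0.043). Of the exon bases of JUNB, 14.2% lie opposite to exons of HOOK2, which had a log2 fold change of 0.18 (adjusted p = 0.31 in edgeR's test).

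JUN (ENSG00000177606, minus strand of chromosome 1 from 58776845 to 58784048) is the prototype partner of FOS. It stood at 579, 535 and 615 CPM in L1high replicates 1, 2 and 3 and at 545, 637 and 643 CPM in the L1low libraries. L1low replicate 1 lay below L1high replicates 1 and 3, so the populations overlapped. The log2 fold change was 0.14 over the 5 libraries (95% interval from -0.05 to 0.32, adjusted p = 0.36 in edgeR's test) and 0.08 over all 6 (95% interval from -0.09 to 0.25). It was 0.028 without L1high replicate 2, 0.044 without L1low replicate 2, 0.047 without L1low replicate 3 and 0.15 without L1low replicate 1, and was called in none of these fits.

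JUND (ENSG00000130522, minus strand of chromosome 19 from 18279694 to 18281622) was the gene with the smallest difference. It stood at 146, 160 and 153 CPM in L1high replicates 1, 2 and 3 and at 131, 171 and 158 CPM in the L1low libraries. L1low replicate 1 was the lowest and L1low replicate 2 the highest of all 6 libraries. This gave a log2 fold change of 0.0086 over the 5 libraries (95% interval from -0.22 to 0.23) and -0.001 over all 6 (95% interval from -0.20 to 0.20).

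Among the remaining genes, ATF3 had the largest log2 fold change. ATF3 (ENSG00000162772, chromosome 1 from 212565334 to 212620777) encodes a stress-induced factor that often represses its targets. It stood at 293, 287 and 291 CPM in the L1high libraries and at 391, 417 and 418 CPM in L1low replicates 1, 2 and 3. The L1high libraries were almost identical, and every L1low library lay far above them. Its fold change on the log2 scale was 0.50 (SE 0.07, adjusted p = 0.00097 in edgeR's test) over the 5 libraries and 0.49 (adjusted p = 0.00038) with all 6. ATF3 and FOSB were the genes whose call held under all 15 alternative settings.

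IER2 (ENSG00000160888, chromosome 19 from 13150411 to 13154911) encodes a nuclear protein of the early response. It stood at 404, 347 and 418 CPM in L1high replicates 1, 2 and 3 and at 446, 531 and 529 CPM in the L1low libraries. The populations did not overlap, with L1high replicate 3 and L1low replicate 1 nearest to each other. The difference on the log2 scale was 0.43 (SE 0.09, adjusted p = 0.016 in edgeR's test) over the 5 libraries and 0.37 (adjusted p = 0.026) with all 6. The call was lost without L1high replicate 1 (adjusted p = 0.082 in edgeR's test), L1high replicate 2 (0.066), L1low replicate 2 (0.15) or L1low replicate 3 (0.064), and without L1high replicate 2 the log2 fold change was 0.29. The antisense gene ENSG00000267598 overlaps 30.7% of the exon bases of IER2 and was called as well (log2 fold change 0.43, adjusted p = 0.044 in edgeR's test). The strand setting of the counting is not given in the sources used here, so reads of IER2 and this antisense gene cannot be told apart with certainty.

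EGR1 (ENSG00000120738, plus strand of chromosome 5 from 138465479 to 138469303) encodes a zinc finger factor that is induced along with FOS. It stood at 1679, 1651 and 1645 CPM in the L1high libraries and at 2132, 2157 and 1906 CPM in L1low replicates 1, 2 and 3. The L1high values were nearly equal, and L1low replicate 3 stood below the other L1low libraries but above every L1high library. The log2 fold change was 0.32 (SE 0.07, adjusted p = 0.021 in edgeR's test) over the 5 libraries and 0.32 (adjusted p = 0.0091) with all 6. The call was lost without L1high replicate 1 (adjusted p = 0.056) or L1low replicate 2 (0.078) in edgeR's test.

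**Figure D2:**
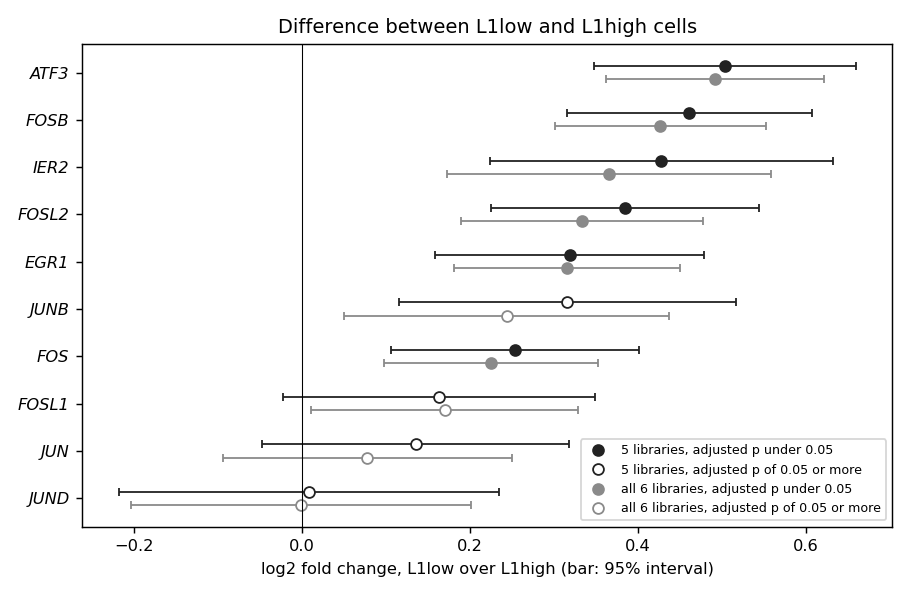
Log2 fold change of each gene, L1low over L1high, with its 95% interval, over the 5 libraries (black) and over all 6 (grey). Filled points, with an adjusted p under 0.05 in edgeR's test, are ATF3, FOSB, IER2, FOSL2, EGR1 and FOS in both fits.

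The libraries of a population ranked alike for many of these genes. L1high replicate 2 held the lowest L1high value for 7 of 10 genes (FOS, FOSB, FOSL2, JUN, JUNB, ATF3 and IER2). L1low replicate 1 held the lowest L1low value for 9 of 10 genes, the exception being EGR1, which was lowest in L1low replicate 3. The highest library exceeded the lowest by 1.53-fold for IER2, 1.46-fold for FOSB and ATF3 and 1.19-fold for FOSL1. The number of genes called among the 10 was 2 without L1high replicate 1 or without L1low replicate 2, 4 without L1high replicate 2, 5 without L1low replicate 3 and 6 without L1low replicate 1. Of all genes, 3.46% were called without L1high replicate 1, 3.22% without L1low replicate 2, 6.56% without L1high replicate 2, 6.04% without L1low replicate 3 and 6.06% without L1low replicate 1. In each of these fits ATF3 and FOSB were called, and none of the 10 genes was called lower.

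The 3 L1low libraries lay entirely above the 3 L1high libraries for 7 of 10 genes, the 6 called genes and FOSL1. Over all genes of the table, 28.8% did not overlap between the populations in either direction, and 15.2% had their L1low libraries entirely above the L1high libraries. For JUN, JUNB and JUND, L1low replicate 1 lay within or below the L1high range.

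The composition of each family shifted little. The shares were taken as CPM per kilobase within a library, which cancels the scaling between libraries, and the shares were added after the levels had been seen. FOS made up 60.4% ± 0.43 of the summed FOS family in L1high cells, against 57.3% ± 0.42 in L1low cells (SD, n = 3 for every share). FOSB made up 35.5% ± 0.36 in L1high cells and 38.7% ± 0.44 in L1low cells. The ranges of the libraries did not overlap for either gene, at 35.1% to 35.7% against 38.3% to 39.1% for FOSB. The sizes of these shares depend on the annotated exon lengths, and in CPM alone FOSB stood above FOS in each library. The smaller share of FOS is relative, since its own level was higher in L1low cells. FOSL1 held 2.30% ± 0.13 in L1high and 2.10% ± 0.02 in L1low cells, and FOSL2 held 1.80% ± 0.05 and 1.84% ± 0.04. Within the JUN family, JUNB made up 56.1% ± 1.4 in L1high and 59.4% ± 0.41 in L1low cells, JUN 29.2% ± 0.13 and 27.6% ± 0.76, and JUND 14.7% ± 1.5 and 13.0% ± 0.43. The two-sided exact permutation p was 0.1, the smallest that 3 against 3 libraries allow, for every share but that of FOSL2 (exact permutation p = 0.2). The shares of a family sum to the whole, so these tests are not independent of each other.

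**Figure D3:**
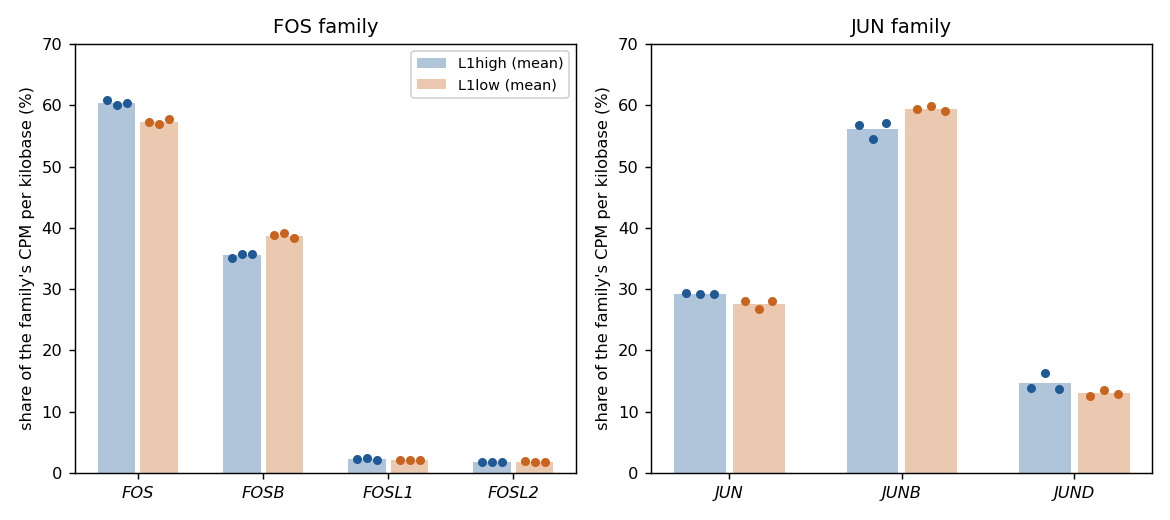
Share of each gene in the summed CPM per kilobase of the FOS family (left) and of the JUN family (right), in percent, with a point per library and the mean of 3 libraries as a bar. FOSB and JUNB took larger shares in L1low than in L1high libraries, and FOSL1 and FOSL2 held small shares in every library.

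Other immediate early genes moved both ways. EGR4 and ARC were not found by symbol in the count table. Of the 30 other genes on this list, the 5-library fit called 6 higher and 2 lower in L1low cells (7 and 2 over all 6 libraries), against 4.41% higher and 3.15% lower over all genes, and the median difference was 0.11 on the log2 scale. EGR2, a sister gene of EGR1, stood at 19.8, 18.4 and 20.2 CPM in the L1high libraries and at 46.3, 52.1 and 53.3 CPM in the L1low libraries. Every L1low library lay above every L1high library by more than the whole L1high level. Its log2 fold change was 1.41 (SE 0.11, adjusted p = 6.2e-06 in edgeR's test), beside 0.32 (SE 0.07) for EGR1, and the difference between these genes was not tested. EGR3, a low gene of the same family, stood at 0.66, 2.24 and 2.25 CPM in the L1high libraries and at 4.13, 5.13 and 3.45 CPM in the L1low libraries, without overlap (log2 fold change 1.56, standard error 0.37, adjusted p = 0.024 in edgeR's test).

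The other 4 genes of this list that rose did so by less. SOCS3, an inhibitor of cytokine signaling, had a log2 fold change of 0.77 (adjusted p = 7.1e-05 in edgeR's test), ZFP36, which destabilizes AU-rich early transcripts, of 0.50 (adjusted p = 0.0012), GADD45B of 0.48 (adjusted p = 0.0074) and ZFP36L2 of 0.37 (adjusted p = 0.014). ZFP36 stood at 399, 399 and 399 CPM in the L1high libraries and at 527, 579 and 572 CPM in L1low replicates 1, 2 and 3, and did not overlap. In contrast, IER5 fell by 0.56 on the log2 scale (adjusted p = 0.0019 in edgeR's test) and the nuclear receptor gene NR4A2 fell by 0.30 (adjusted p = 0.020). The most abundant gene of this list that was not called was NR4A1, at 1184 to 1495 CPM in the L1high libraries and 1420 to 1446 CPM in the L1low libraries.

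Among kinases and SRF factors upstream of the early genes, the share called was near that of all genes. The 5-library fit called 1 of 25 genes higher and 1 lower, or 8%, against 7.57% of all genes, and all 6 libraries gave 2 and 1. The median difference was 0.10 on the log2 scale. SRF, the serum response factor that binds CArG boxes in early gene promoters, stood at 44.7, 42.0 and 54.0 CPM in L1high replicates 1, 2 and 3 and at 65.2, 63.8 and 63.9 CPM in the L1low libraries. L1high replicate 3 was the highest L1high library for SRF but stayed below every L1low library. Its log2 fold change was 0.58 (SE 0.09, adjusted p = 0.0013 in edgeR's test), and 0.46 (adjusted p = 0.012) over all 6. MAPK9, which encodes the JUN kinase JNK2, fell by 0.29 on the log2 scale (adjusted p = 0.047 in edgeR's test).

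CArG boxes were searched in the 250 bases before each RefSeq transcription start on GRCh38.p14, together with the AP-1 element TGACTCA and the cAMP response element TGACGTCA, on both strands. Of the 10 genes, 9 had a window and FOSL1 had none. EGR1 was the 1 gene with CArG boxes, starting 105 and 83 bases before the start, JUND the 1 gene with TGACGTCA, starting 200 bases before it, and TGACTCA was found in none. Over all 35116 windows of this length, 1.16% held a CArG box, 1.65% held TGACGTCA and 4.20% held TGACTCA. EGR2 held 1 CArG box, starting 71 bases before the start, in 1 of its 3 windows. SRF held CArG boxes starting 30 and 10 bases before the start in 1 of its 2 windows. The windows of EGR1, EGR2 and SRF are shown because these 3 genes rose and carry a CArG box, and that of JUND because it carries the cAMP response element and had the smallest difference. Picked in this way, they cannot show a relation between motif and change. The windows of FOS, FOSB, FOSL2, ATF3 and IER2, which were called higher as well, held no CArG box. A match describes letters only, and a window without a match says nothing about binding elsewhere. Capitals mark the CArG boxes in EGR1 (chr5:138465229-138465478, plus strand), EGR2 (chr10:62816367-62816616, minus strand) and SRF (chr6:43171019-43171268, plus strand) and the cAMP response element in JUND (chr19:18281623-18281872, minus strand).
EGR1: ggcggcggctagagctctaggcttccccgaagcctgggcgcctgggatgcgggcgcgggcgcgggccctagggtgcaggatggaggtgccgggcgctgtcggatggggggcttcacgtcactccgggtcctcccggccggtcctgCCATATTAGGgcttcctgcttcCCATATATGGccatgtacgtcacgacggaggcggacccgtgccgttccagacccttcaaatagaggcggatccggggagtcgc
EGR2: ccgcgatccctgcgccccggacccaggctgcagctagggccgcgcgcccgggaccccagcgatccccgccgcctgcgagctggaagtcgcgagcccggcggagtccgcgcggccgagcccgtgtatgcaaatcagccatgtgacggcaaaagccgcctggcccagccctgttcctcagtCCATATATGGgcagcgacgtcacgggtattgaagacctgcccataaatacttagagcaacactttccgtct
SRF: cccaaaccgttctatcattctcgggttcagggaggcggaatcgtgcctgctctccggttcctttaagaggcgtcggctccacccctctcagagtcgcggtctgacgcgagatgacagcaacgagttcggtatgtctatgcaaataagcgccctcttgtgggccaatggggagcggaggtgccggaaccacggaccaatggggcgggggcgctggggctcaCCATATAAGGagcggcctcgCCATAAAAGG
JUND: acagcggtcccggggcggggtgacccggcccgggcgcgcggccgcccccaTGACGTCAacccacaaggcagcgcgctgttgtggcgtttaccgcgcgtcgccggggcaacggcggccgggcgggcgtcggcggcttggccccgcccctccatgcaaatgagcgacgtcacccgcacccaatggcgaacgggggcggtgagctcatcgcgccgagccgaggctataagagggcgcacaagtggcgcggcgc

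Other basic leucine zipper genes that can pair with AP-1 proteins were called about as often as all genes. BATF, BATF2 and MAF were not found by symbol in the count table. Of the remaining 23 genes, 1 was called higher and 1 lower (0 and 1 over all 6 libraries), or 8.7% against 7.57% of all genes, and the median difference was 0.03 on the log2 scale. JDP2, a partner of JUN that represses AP-1 activity, had a log2 fold change of 0.43 (adjusted p = 0.046 in edgeR's test), and was not called over all 6 libraries (0.35, adjusted p = 0.076). ATF4, the most abundant gene of the list that was not called, ran from 341 to 362 CPM in L1high and from 341 to 388 CPM in L1low libraries.

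Of the genes known as AP-1 targets, some rose, some fell and 9 were not called. MMP3 and MMP9 were not found by symbol in the count table. Among the other 20 targets the test called 8 higher and 3 lower in both fits, against 4.41% and 3.15% of all genes over the 5 libraries, and the median difference was 0.09 on the log2 scale. This list was chosen with the results for matrix metalloproteinases known. The collagenase and stromelysin genes MMP10 (log2 fold change 2.06), MMP1 (1.47) and MMP13 (0.95) rose, as did F3, which encodes tissue factor (0.57), with adjusted p from 5.8e-06 to 0.026 in edgeR's test. The cytokine genes IL6 (-0.95), LIF (-0.84) and CXCL8 (-0.77) fell, with adjusted p from 3.3e-05 to 0.016. The MMP genes and IL6 were measured at low levels. MMP10 ran from 3.36 to 3.44 CPM in L1high and from 13.2 to 15.0 CPM in L1low libraries. MMP1 ran from 2.73 to 3.11 and from 6.66 to 10.2 CPM, and MMP13 from 2.78 to 3.23 and from 4.40 to 7.13 CPM. IL6 ran from 3.84 to 4.43 CPM in L1high and from 2.09 to 2.40 CPM in L1low libraries. LIF stood at 184, 166 and 187 CPM in the L1high libraries and at 92.7, 97.7 and 100.4 CPM in the L1low libraries, without overlap. The most abundant target that was not called was CD44, at 460 to 506 CPM in L1high and 422 to 459 CPM in L1low libraries.

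Heat shock and chaperone genes, some of which respond to stress, moved both ways, with a median log2 fold change below 0. Of the 15 genes, 6 lay above 0. These were HSPB1 and, not called, HSPA1A (0.08), HSPA1B (0.02), HSPA5 (0.06), DNAJB1 (0.20) and BAG3 (0.09). The others lay below 0. Of 15 measured, 1 was called higher (HSPB1, log2 fold change 0.36) and 3 lower (HSPE1, -0.40, DNAJA1, -0.37, and HSPA8, -0.31), against 4.41% and 3.15% of all genes, with a median of -0.22. HSPB1 was not called over all 6 libraries (adjusted p = 0.055 in edgeR's test). The summed level of the list was 8441 to 8674 CPM in L1high and 7456 to 7875 CPM in L1low libraries, without overlap, while the summed level of the 7 immediate early genes FOS, FOSB, JUN, JUNB, ATF3, EGR1 and IER2 was 7431 to 8032 CPM in L1high and 9363 to 10060 CPM in L1low libraries. HSP90AB1, the most abundant of the chaperones not called, ran from 1994 to 2199 CPM in L1high and from 1885 to 2057 CPM in L1low libraries.

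The genes most like FOS over the 6 libraries were RABGAP1, PGK1P1, EP300, SREBF2 and ZNF740, at a mean absolute difference of 0.0083 to 0.015 in centred log2 CPM. For FOSL1 they were RAB11B, RERE, ELK1, MYADM and HOXB3, at 0.0058 to 0.017. They were the nearest among 12665 genes that averaged 3 or more in log2 CPM, and the 10 genes themselves were left out.

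**Figure D4:**
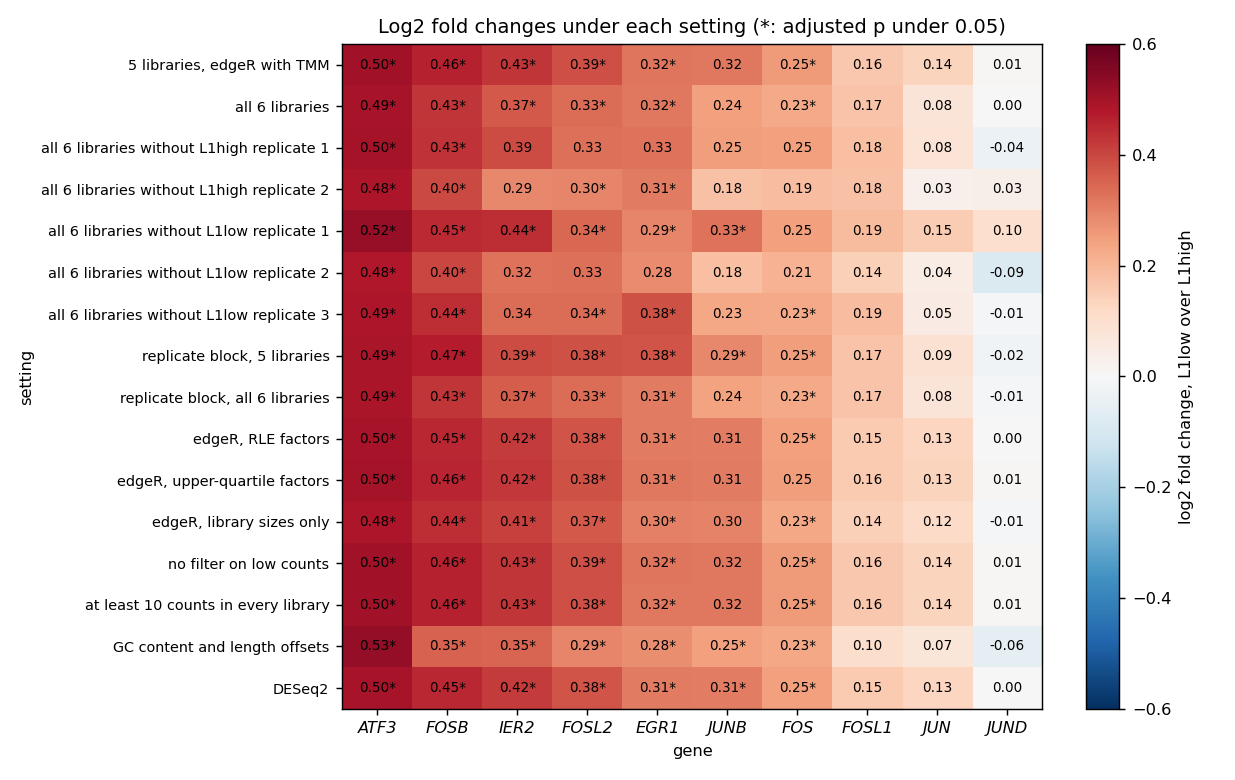
Log2 fold change of each gene (columns) under each setting (rows), coloured from blue (lower in L1low) to red (higher in L1low), with an asterisk where the adjusted p was under 0.05. ATF3 and FOSB carry an asterisk in every row, FOSL1, JUN and JUND in none, and JUND changes sign between settings.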

How the data were processed

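RNA of sorted L3.6pl cells was sequenced from stranded mRNA libraries. BWA was the aligner, GRCh38 the reference and featureCounts, with Ensembl release 94, the counter. The authors deposited the resulting raw read counts per gene. Versions and the strand and multi-mapping options are not given in the sources used here, and the submitters' processing notes also name DESeq2. BWA does not align across splice junctions, which can lower the counts of short exons and leaves single-exon genes such as JUN, JUNB and JUND less affected. Every deposited gene exceeded 1 CPM in at least 2 of 6 libraries.

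Counts were tested in R 4.3.3 with edgeR 4.0.16 (TMM factors, filterByExpr, quasi-likelihood test, Benjamini-Hochberg adjustment over 19469 genes). The standard error is the log2 fold change divided by the square root of F. Log2 CPM used a prior count of 2. Symbols, positions and exon lengths came from GENCODE release 44, which matched 19344 genes, and promoter windows from RefSeq. The fit over the 5 libraries was tested on simulated data with 200 changed genes of each size. It called 162 of 200 at a log2 fold change of 1 and 19 of 200 at 0.3, and 6 of its 187 calls were false. A gene that was not called may therefore still differ by such a small amount. As alternatives, the fit was run over all 6 libraries, with each replicate left out in turn, and with a replicate block, DESeq2 1.42.0, other scalings and filters, and offsets for GC content and length.

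The 10 genes and the related lists were chosen with earlier results of these data known, among them those for matrix metalloproteinases. All 10 genes were named. From each list, up to 8 called genes with the largest change and the most abundant gene not called were named. Of the genes under this rule, 3 are not reported here. The 5 genes most like FOS and FOSL1 in centred log2 CPM were also named. Shares within the FOS and JUN families were added after the levels were seen.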

Additional observations from a re-analysis of the deposited data

How the results depend on the processing

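Over 150 values, those of 10 genes under 15 alternatives, 125 had an unchanged direction and call, 13 were no longer called, 4 were newly called and 8 changed sign, all of these last for JUND. JUND stood at -0.001 over all 6 libraries, -0.023 with the replicate block over the 5 libraries and -0.0084 with it over all 6, -0.011 with library sizes only and -0.061 with GC content and length offsets. FOS stood at 0.25 with upper-quartile factors (not called). JUNB stood at 0.29 with the replicate block over the 5 libraries, 0.25 with GC content and length offsets and 0.31 with DESeq2 (called in each). With 1 replicate left out of all 6 libraries, log2 fold changes ran from 0.19 to 0.25 for FOS (0.21 without L1low replicate 2), 0.30 to 0.34 for FOSL2, 0.028 to 0.15 for JUN, 0.18 to 0.33 for JUNB, -0.086 to 0.10 for JUND (-0.036 without L1high replicate 1 and -0.014 without L1low replicate 3), 0.28 to 0.38 for EGR1 and 0.29 to 0.44 for IER2 (0.39 without L1high replicate 1 and 0.32 without L1low replicate 2). The cause of these changes was not tested. The number of genes called, 1473 over the 5 libraries, ran from 627 without L1low replicate 2 to 1278 without L1high replicate 2, and was 674 without L1high replicate 1.

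The number of genes called was 2363 with the replicate block over all 6 libraries, against 1548 without it. Same-numbered libraries correlated in their deviations by 0.12, 0.097 and 0.29 for numbers 1, 2 and 3. Numbers 1 and 3 matched best with themselves, and number 3 correlated negatively with the others (-0.146 to -0.198). L1high replicate 2 correlated about as well with L1low replicate 1 (0.11) as with L1low replicate 2. Whether the numbers are pairs was not settled, so the block was kept as an alternative. Among the 10 genes the block changed the call of JUNB over the 5 libraries and of none over all 6. Leaving out the filter on low counts removed and changed nothing. Other scalings moved the median of all genes by less than 0.02. For the 10 genes the counting error was at most 3.6%. The common biological coefficient of variation was 0.088, but it was fitted over all genes. The spread of the 10 genes differed. Over the L1high libraries the SD was 0.94 CPM around 48.05 for FOSL1 and 37.8 CPM around 389.6 for IER2.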
